A study of Mus musculus with 6 samples.

Results

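The cholesterol synthesis and SREBP2 pathway was described in mouse liver through 26 genes chosen by symbol, all of which were present among the 24421 genes of the count tables. RNA sequencing was done on liver of 7-month-old mice of the Townes sickle cell line, in which human globin genes take the place of the mouse globin genes in both genotypes. SS mice carried Hbatm1(HBA)Tow with the sickle allele Hbbtm2(HBG1,HBB*)Tow alone. AS mice carried Hbatm1(HBA)Tow with Hbbtm2(HBG1,HBB*)Tow opposite the normal allele Hbbtm3(HBG1,HBB)Tow, so the AS animals also bear a sickle allele. Each genotype had 3 libraries, with 6670011 to 13700194 gene reads per library. The labels give no sex, litter or batch and do not say whether the libraries of a genotype came from separate animals, so any p-value here speaks of the spread among libraries, which may be technical.

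Hepatocytes build cholesterol from acetyl-CoA through mevalonate, the prenyl diphosphates, squalene and lanosterol, and the liver is a main site of this synthesis. The enzymes are largely under shared control: when sterols in the endoplasmic reticulum run low, the escort protein SCAP carries the transcription factor SREBP2 to the Golgi, where proteases release its active part. When sterols are plentiful, the INSIG proteins hold SCAP in the endoplasmic reticulum, and Insig1 is itself a target of SREBP. At promoters SREBP2 acts with the CCAAT-binding factor NF-Y and the GC box factor Sp1.

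Promoter windows of these genes were searched for the letters of those cofactor sites, and also for the E-box and a core of the sterol regulatory element. RefSeq windows on GRCm38.p6, running from 250 bases before to 50 bases after an annotated start, were found for 21 of the 26 genes, 27 windows in all. None was found for Fdps, Fdft1, Sqle, Stard4 or Soat2. The CCAAT box (CCAAT on either strand) stood in 19 of the 27 windows (70.4%), against 37.4% of the 32851 windows in the table. The GC box (GGGCGG on either strand) stood in 22 of 27 (81.5%), against 35.7% of all windows, and the E-box (CACGTG) in 6 of 27 (22.2%), against 7.15%. Windows of the same gene can overlap and share a site, as the Scap windows share an E-box. Counted by gene, the CCAAT box stood in 19 of 21, the GC box in 19 of 21 and the E-box in 5 of 21. The shares over all 27025 genes were 41.1%, 38.2% and 8.09%. Those genes include many that were not tested here, while all 26 pathway genes passed the expression filter. Shares over the tested genes alone were not counted, so an excess particular to this pathway is not shown. A core of the sterol regulatory element, searched as TCACNCCAC on either strand, was found in the window of Hmgcs1 alone (1 of 27, 3.7%, against 1.24% of all windows). These are matches of letters and not shown binding sites, and other forms of the element were not searched. The 4 windows printed here are those of Hmgcs1, the gene with the sterol element core (chr13:119690101-119690400, plus strand), of Insig1, the feedback gene (chr5:28071162-28071461, plus strand), of Mvd, whose fitted fold change was the lowest of the 26 (chr8:122443373-122443672, minus strand), and of Hsd17b7, with 3 CCAAT boxes (chr1:169969156-169969455, minus strand). Each is read 5′ to 3′ on the gene's strand, with the sterol element core and the CCAAT boxes (ATTGG on the other strand) in capitals. The 3 CCAAT boxes do not set Hsd17b7 apart, since the window of Mvk held 5 and that of Nsdhl 4.
Hmgcs1: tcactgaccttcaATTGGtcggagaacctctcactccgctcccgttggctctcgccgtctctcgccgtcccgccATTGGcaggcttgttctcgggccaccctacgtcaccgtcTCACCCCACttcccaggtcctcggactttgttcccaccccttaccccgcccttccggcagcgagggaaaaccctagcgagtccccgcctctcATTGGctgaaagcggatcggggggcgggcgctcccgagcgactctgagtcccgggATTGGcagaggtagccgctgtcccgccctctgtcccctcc
Insig1: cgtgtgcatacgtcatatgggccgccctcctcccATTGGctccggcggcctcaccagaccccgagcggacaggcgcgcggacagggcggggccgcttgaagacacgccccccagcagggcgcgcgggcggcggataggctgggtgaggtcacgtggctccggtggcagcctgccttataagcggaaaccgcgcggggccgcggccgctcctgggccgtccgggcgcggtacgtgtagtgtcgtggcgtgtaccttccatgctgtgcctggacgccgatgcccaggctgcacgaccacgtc
Mvd: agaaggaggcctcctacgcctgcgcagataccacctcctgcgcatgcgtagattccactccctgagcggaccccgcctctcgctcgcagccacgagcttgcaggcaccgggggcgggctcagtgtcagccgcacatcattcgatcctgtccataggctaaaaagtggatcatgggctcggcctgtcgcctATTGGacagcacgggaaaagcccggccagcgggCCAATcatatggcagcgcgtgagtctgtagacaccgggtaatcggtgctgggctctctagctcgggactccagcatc
Hsd17b7: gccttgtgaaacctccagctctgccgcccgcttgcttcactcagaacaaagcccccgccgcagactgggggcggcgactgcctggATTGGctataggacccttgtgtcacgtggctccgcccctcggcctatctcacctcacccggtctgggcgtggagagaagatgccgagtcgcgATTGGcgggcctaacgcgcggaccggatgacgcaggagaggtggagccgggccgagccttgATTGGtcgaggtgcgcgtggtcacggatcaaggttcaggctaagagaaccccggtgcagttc

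Comparing SS with AS liver asks whether genes of cholesterol synthesis differ in a liver exposed to sickling. No gene of the pathway passed the test, and most had lower mean levels in SS than in AS liver. Of the 26 genes, 22 had a log2 change (SS over AS) below 0, with a median of -0.42, where the median of all 12622 genes tested was 0.08 and 43.7% of them lay below 0. The lean was not particular to the pathway: of 9 tested hepatocyte markers, 8 lay below 0, with a median of -0.45. With library totals alone as scaling the median of all genes was 0.36, 16 of the 26 genes lay below 0, and 23 lay below that median. Of the 20 synthesis enzymes, 18 had a log2 change below 0, and their median was -0.46. Leaving out 1 library at a time, 20 to 22 of the 26 genes lay below 0, but the size of the medians moved: without SS replicate 3 they were -0.24 for the 26 genes and -0.26 for the enzymes, and without SS replicate 2 they were -0.58 and -0.64. For 19 of the 26 genes the log2 change moved by over 1.5 times, or changed sign, in at least 1 of these fits. In bulk liver, fewer cells of a type and less RNA per cell cannot be told apart.

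The quasi-likelihood test of edgeR, adjusted by Benjamini-Hochberg over all genes, called 0 of the 26 genes at an adjusted p under 0.05, where 0.967% of all genes tested were called (0.911% higher and 0.0555% lower in SS). At an unadjusted p under 0.05, 2 of the 26 were lower (Tm7sf2 and Insig1), where 3.58% of all genes were, and 1 was higher (Ggps1), where 9.12% of all genes were. DESeq2, which called 1.47% of all genes higher and 0.498% lower, called 0 of the 26. At an unadjusted p under 0.05 it had 5 of the 26 lower and 0 higher, where 691 of 18656 genes were lower and 1260 higher. Limma-voom, which called 0.238% of all genes higher and 0.00792% lower, also called 0. At the same unadjusted p it had 2 of the 26 lower and 1 higher, where 543 of 12622 genes were lower and 999 higher. SS and AS libraries did not overlap for 7 of the 26 genes, with SS lower for Mvd, Sqle, Tm7sf2, Ebp and Scap and SS higher for Ggps1 and Lbr. Over all genes tested the share with no overlap was 21.1% (9.04% with SS lower and 12.1% with SS higher). With library totals alone as scaling, the SS and AS libraries of Mvd, Sqle, Ebp and Scap did overlap. The 95% intervals of the changes reached past a fold of 2 for 18 of the 26 genes, so these libraries do not show that the levels were alike.

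**Figure D1:**
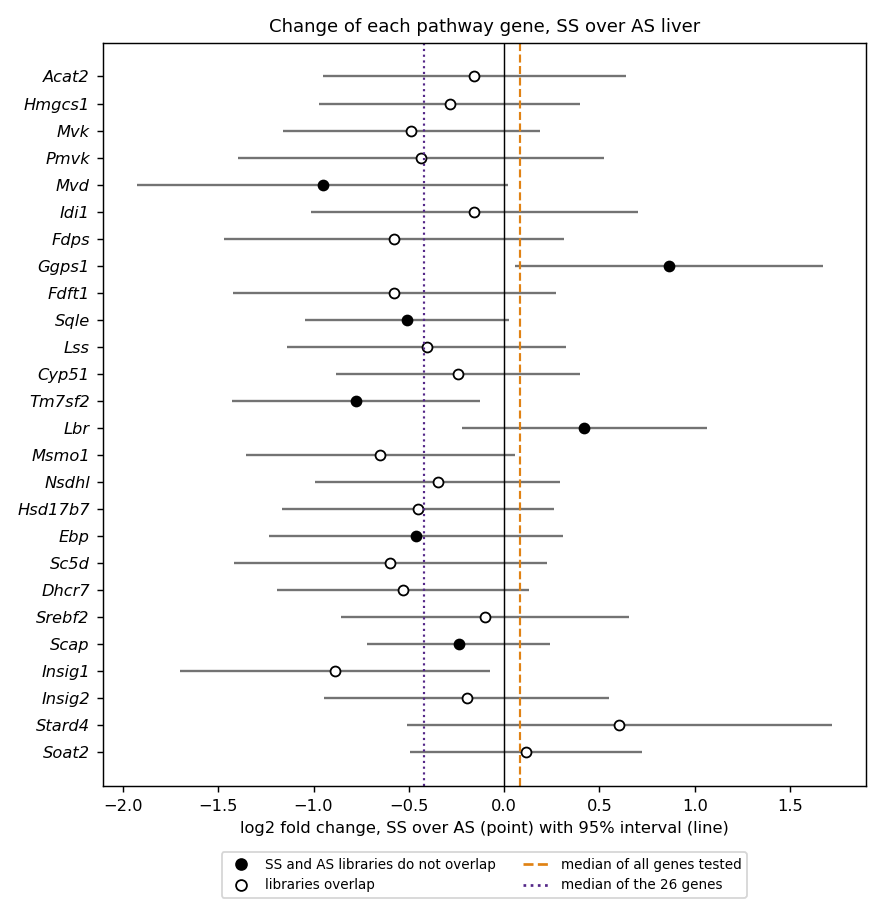
Log2 fold change of each of the 26 pathway genes, SS over AS liver, as a point with its 95% interval from edgeR (3 libraries per genotype). Filled points mark genes whose SS and AS libraries do not overlap; 22 points lie below 0, and the dotted line at -0.42 is the median of the 26 genes, left of the dashed line at 0.08 for all genes tested.

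Acat2 and Hmgcs1 act at the entry to the pathway. Hmgcs1, the cytosolic HMG-CoA synthase, had 323, 418 and 201 CPM (read counts scaled to a common library total with trimmed-mean factors) in SS replicates 1, 2 and 3, against 317, 412 and 420.1 CPM in AS replicates 1, 2 and 3. Acat2, a cytosolic acetoacetyl-CoA thiolase, had 88.8, 146 and 78.9 CPM in SS liver, against 63.7, 152 and 135 CPM in AS liver. The libraries of both genes overlapped, with SS replicate 3 at the low end for Hmgcs1 and AS replicate 1 for Acat2. Their log2 changes were -0.29 (edgeR adjusted p = 0.720, SE 0.309) for Hmgcs1 and -0.16 (edgeR adjusted p = 0.876, SE 0.359) for Acat2, that of Hmgcs1 was -0.056 without SS replicate 3 and -0.56 without SS replicate 2, and that of Acat2 turned to 0.060 without AS replicate 2 and 0.0055 without SS replicate 3. Mouse Acat2 has a close paralog, Acat3, so its count is uncertain.

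Between mevalonate and the prenyl diphosphates, 5 of 6 genes had lower fitted values in SS and Ggps1 a higher one. Mvd, the mevalonate diphosphate decarboxylase that makes isopentenyl diphosphate, had 31.0, 35.2 and 8.69 CPM in SS replicates 1, 2 and 3, against 37.3, 55.4 and 52.1 CPM in AS replicates 1, 2 and 3. Every SS library lay below every AS library, and SS replicate 3 was far below the rest. For Mvd the log2 change was -0.95 (edgeR adjusted p = 0.406, SE 0.440, 95% interval -1.92 to 0.021) and was -0.55 without SS replicate 3. Fdps, farnesyl diphosphate synthase, had 303, 427 and 125 CPM in SS liver, against 323, 492 and 462 CPM in AS liver, a log2 change of -0.58 (edgeR adjusted p = 0.570, SE 0.404) that was -0.23 without SS replicate 3. Pmvk, the phosphomevalonate kinase, showed the same low SS replicate 3, with 82.1, 125 and 35.4 CPM in SS liver, against 63.0, 134 and 131 CPM in AS liver. Its log2 change was -0.44 (edgeR adjusted p = 0.698, SE 0.434), and was -0.085 without SS replicate 3 and -0.91 without SS replicate 2. Mvk, the mevalonate kinase before it, averaged 26.9 ± 10.4 CPM in SS and 37.8 ± 3.40 CPM in AS (SD, n = 3 each), with a log2 change of -0.49 (SE 0.305).

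Idi1 and Ggps1 went another way in SS replicate 3. Idi1, the isomerase that supplies dimethylallyl diphosphate, had 52.7, 57.6 and 132 CPM in SS replicates 1, 2 and 3, against 56.2, 107 and 107 CPM in AS replicates 1, 2 and 3. SS replicates 1 and 2 and AS replicate 1 were close together, and SS replicate 3 was the highest of the 6. The log2 change of Idi1 was -0.16 (edgeR adjusted p = 0.884, SE 0.388), and it turned to 0.069 and 0.029 without SS replicates 1 and 2. Ggps1 makes geranylgeranyl diphosphate, which is used to prenylate proteins and lies off the sterol branch. It had 8.97, 7.32 and 12.4 CPM in SS liver, against 4.15, 5.96 and 5.64 CPM in AS liver, with no overlap. The log2 change of Ggps1 was 0.86 (edgeR adjusted p = 0.366, SE 0.365, 95% interval 0.057 to 1.67).

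The 3 genes from farnesyl diphosphate to lanosterol had lower fitted values in SS. Fdft1, squalene synthase, had 210.3, 306 and 97.3 CPM in SS replicates 1, 2 and 3, against 237, 347 and 330 CPM in AS replicates 1, 2 and 3, a log2 change of -0.58 (edgeR adjusted p = 0.5502, SE 0.384) that was -0.25 without SS replicate 3 and -1.002 without SS replicate 2. Of its exon bases, 18.3% lie opposite Ctsb on the other strand, which makes its count less certain. Sqle, the squalene epoxidase that is a rate-limiting step of sterol synthesis, had 83.1, 107 and 103 CPM in SS liver, against 114, 150.5 and 152 CPM in AS liver. No SS library of Sqle reached the lowest AS library, and SS replicate 3 did not stand apart here. Sqle had a log2 change of -0.51 (edgeR adjusted p = 0.416, SE 0.242, 95% interval -1.05 to 0.026). Lss, lanosterol synthase, which closes the sterol rings, had 46.3, 66.4 and 55.2 CPM in SS liver, against 39.6, 95.04 and 88.2 CPM in AS liver, with AS replicate 1 the lowest of all. Its log2 change was -0.41 (SE 0.330), and -0.72 without AS replicate 1.

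**Figure D2:**
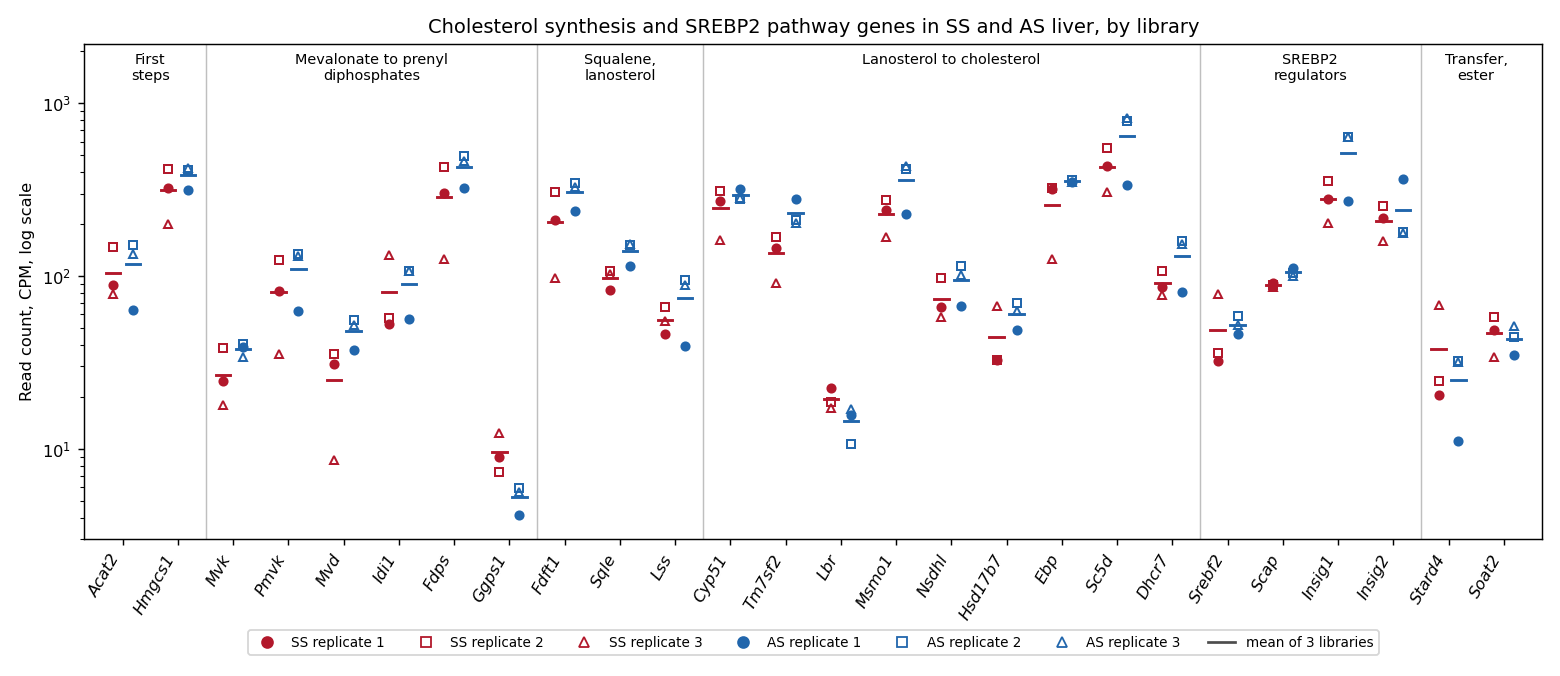
CPM (log axis) of the 26 genes in each liver library, grouped by step of the pathway; red points are the SS libraries, blue points the AS libraries, the marker shape gives the replicate number and the short line the mean of 3 libraries. The SS libraries lie wholly below the AS libraries for Mvd, Sqle, Tm7sf2, Ebp and Scap, and wholly above them for Ggps1 and Lbr.

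After lanosterol, 8 of 9 genes had lower fitted values in SS and Lbr a higher one. Tm7sf2, a sterol reductase that removes the double bond left by the demethylation of lanosterol, had 146, 169 and 91.6 CPM in SS replicates 1, 2 and 3, against 281, 212 and 202 CPM in AS replicates 1, 2 and 3. All SS libraries were below all AS libraries. Its log2 change of -0.78 (edgeR adjusted p = 0.312, SE 0.293, 95% interval -1.43 to -0.13) had the lowest p of the 26 genes, and 12.1% of its exon bases are shared with Vps51 on the same strand, which makes its count less certain. Lbr, the lamin B receptor of the inner nuclear membrane, carries the same sterol reductase activity. It had 22.4, 18.7 and 17.3 CPM in SS liver, against 15.8, 10.6 and 17.01 CPM in AS liver, a log2 change of 0.42 (edgeR adjusted p = 0.563, SE 0.290). The reductase pair thus had fitted changes of opposite sign, neither of them called, and the difference between them was not tested.

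Cyp51, the lanosterol demethylase, had 272, 312 and 163 CPM in SS replicates 1, 2 and 3, against 319.7, 280.4 and 282 CPM in AS replicates 1, 2 and 3. The groups overlapped, and the log2 change was -0.24 (edgeR adjusted p = 0.7502, SE 0.290). Msmo1, which oxidises the methyl groups at carbon C4 of the sterol, had 242, 275 and 168 CPM in SS liver, against 229, 414 and 430.5 CPM in AS liver, with AS replicate 1 among the SS values. Msmo1 had a log2 change of -0.65 (edgeR adjusted p = 0.425, SE 0.319). Nsdhl and Hsd17b7, the dehydrogenase and the ketoreductase of the same demethylation, had log2 changes of -0.35 (SE 0.2903) and -0.45 (SE 0.322). Nsdhl averaged 74.0 ± 20.6 CPM in SS and 94.3 ± 24.5 CPM in AS (SD, n = 3 each). Hsd17b7 had 32.6, 32.8 and 67.5 CPM in SS liver, against 48.8, 70.2 and 63.1 CPM in AS liver, so that SS replicates 1 and 2 were the lowest and SS replicate 3 lay within the AS range.

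Ebp, the isomerase that shifts the ring double bond, had 318, 324 and 126 CPM in SS replicates 1, 2 and 3, against 349.8, 358 and 349.8 CPM in AS replicates 1, 2 and 3. The AS libraries were close to each other, SS replicates 1 and 2 lay just below them and SS replicate 3 far below, so the log2 change of -0.46 (edgeR adjusted p = 0.597, SE 0.349) was -0.14 without SS replicate 3. Sc5d, which sets the next double bond, had 433, 548 and 308 CPM in SS liver, against 338, 787 and 825 CPM in AS liver, a log2 change of -0.60 (edgeR adjusted p = 0.519, SE 0.3701). Dhcr7, the last reductase on the way to cholesterol, had 86.6, 107 and 77.9 CPM in SS liver, against 81.1, 159 and 153 CPM in AS liver, with a log2 change of -0.53 (edgeR adjusted p = 0.484, SE 0.298). In both genes AS replicate 1 lay among the SS libraries and the other AS libraries stood above all SS libraries.

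Among the regulators, Insig1 (chromosome 5, 28071363 to 28078662, mm10) was split within the AS libraries. It had 280.1, 354 and 202 CPM in SS replicates 1, 2 and 3, against 270.2, 638 and 639 CPM in AS replicates 1, 2 and 3. AS replicate 1 lay within the SS range, and the other AS libraries were above every SS library. For Insig1 the log2 change was -0.89 (edgeR adjusted p = 0.358, SE 0.367, 95% interval -1.70 to -0.074), and -1.21 without AS replicate 1 (edgeR adjusted p = 0.189). Insig2, which serves the same anchoring role but is not known as an SREBP target, had 216, 253 and 159 CPM in SS liver, against 363, 179 and 178 CPM in AS liver. Here AS replicate 1 was the highest of the 6 libraries, and the log2 change of -0.20 (edgeR adjusted p = 0.831, SE 0.338) turned to 0.22 without it. Per kilobase of exon, Insig1 stood at 1.45, 1.57 and 1.43 times Insig2 in SS replicates 1, 2 and 3, against 0.835, 4.001 and 4.03 times in AS replicates 1, 2 and 3. The SS ratios lay between the ratio of AS replicate 1 and those of AS replicates 2 and 3.

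Srebf2, which encodes SREBP2, had 32.1, 35.7 and 78.5 CPM in SS replicates 1, 2 and 3, against 46.1, 58.8 and 52.2 CPM in AS replicates 1, 2 and 3. SS replicate 3 was above all AS libraries, while SS replicates 1 and 2 were below them. The log2 change of Srebf2 was -0.099 (edgeR adjusted p = 0.921, SE 0.341), which turned to 0.12 without SS replicate 1 and 0.074 without SS replicate 2, and was -0.63 without SS replicate 3. Scap, the escort of SREBP, varied little, with 91.6, 89.2 and 86.8 CPM in SS liver, against 112, 104 and 99.6 CPM in AS liver. Its groups did not overlap, and its log2 change was -0.24 (edgeR adjusted p = 0.665, SE 0.216, 95% interval -0.72 to 0.24).

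Stard4 and Soat2 act on the finished sterol. Stard4, a cytosolic sterol transfer protein and SREBP2 target, had 20.6, 24.9 and 68.3 CPM in SS replicates 1, 2 and 3, against 11.2, 32.2 and 31.6 CPM in AS replicates 1, 2 and 3. The highest library was SS replicate 3 and the lowest AS replicate 1, and the log2 change of 0.6043 (edgeR adjusted p = 0.632, SE 0.503) turned to -0.14 without SS replicate 3. Soat2, the acyltransferase that esterifies cholesterol in hepatocytes for export in lipoproteins, had 48.8, 58.3 and 34.0 CPM in SS liver, against 34.9, 44.1 and 51.3 CPM in AS liver. Its log2 change was 0.11 (edgeR adjusted p = 0.882, SE 0.275), which turned to -0.033 without AS replicate 1 and -0.084 without SS replicate 2.

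**Figure D3:**
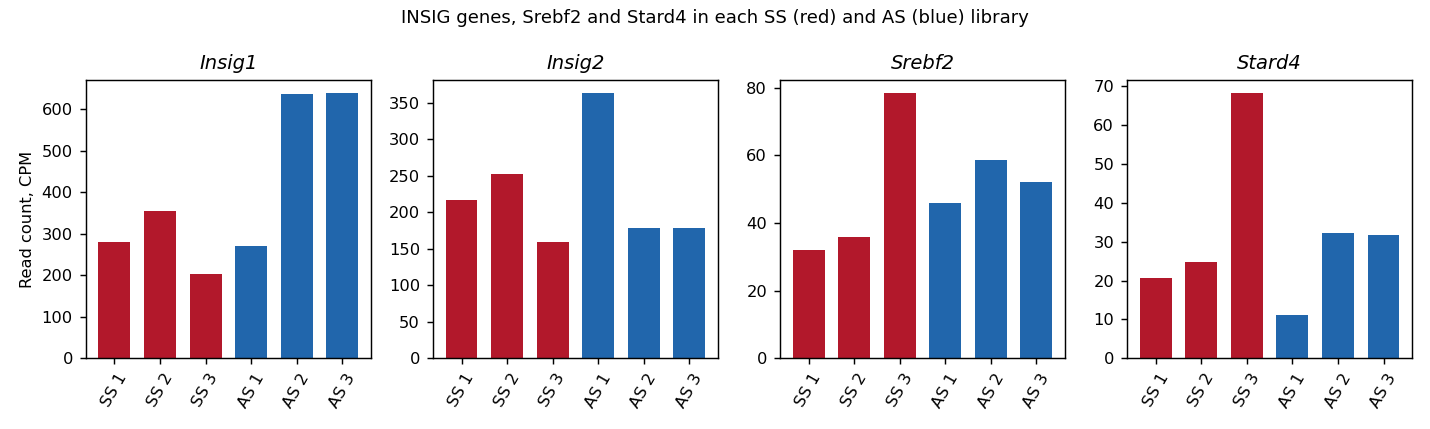
CPM of Insig1, Insig2, Srebf2 and Stard4 in each liver library, SS in red and AS in blue, each panel on its own linear axis from 0. AS replicate 1 is low for Insig1 (270.2 CPM) and high for Insig2 (363 CPM), and SS replicate 3 is the highest library for Srebf2 (78.5 CPM) and Stard4 (68.3 CPM).

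Levels of different genes were compared per kilobase of exon (RPKM, the CPM divided by the annotated exon length in kilobases). In SS liver the highest mean levels were those of Ebp (111 ± 48.7, SD, n = 3), Insig1 (90.2 ± 24.5) and Sc5d (88.3 ± 24.6), and in AS liver those of Insig1 (167 ± 68.7, SD, n = 3), Ebp (153 ± 2.11) and Sc5d (134 ± 55.6). The spread of these genes overlapped within each genotype, so their order is not resolved. At the other end were Ggps1, at 2.02 ± 0.544 in SS and 1.11 ± 0.205 in AS, and Lbr, at 4.09 ± 0.558 in SS and 3.04 ± 0.711 in AS. Among the synthesis enzymes, the pair with the lowest levels per kilobase was thus also the pair with a fitted change above 0.

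Libraries of the same genotype spread widely over the pathway. SS replicate 3 was the lowest of all 6 libraries for 17 of the 26 genes (65.4%), where it was the lowest for 26.7% of all genes tested. Its log2 ratio to the mean of SS replicates 1 and 2 had a median of -0.60 over the 26 genes and ran from -1.93 for Mvd to 1.59 for Stard4. The median of that ratio over all genes tested was -0.032. SS replicate 3 was the highest of the 6 libraries for Ggps1, Idi1, Srebf2 and Stard4 (4 of 26, 15.4%, against 29.7% of all genes). In AS replicate 1, 20 of the 26 genes (76.9%) were below both other AS libraries, against 41.8% of all genes, with a median log2 ratio to their mean of -0.48 against -0.023 for all genes. Insig2, with a log2 ratio of 1.03, went furthest the other way. AS replicates 2 and 3 lay close together, with a median absolute log2 difference of 0.068 over the 26 genes and 0.196 over all genes. These orders and ratios depend on the trimmed-mean factors, which were highest for SS replicate 3 (1.21) and lowest for AS replicate 1 (0.834). Library totals alone would raise SS replicate 3 and lower AS replicate 1 against the other libraries. Sc5d and Insig1, for example, would then be lowest in AS replicate 1. The library orders were not counted with that scaling.

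**Figure D4:**
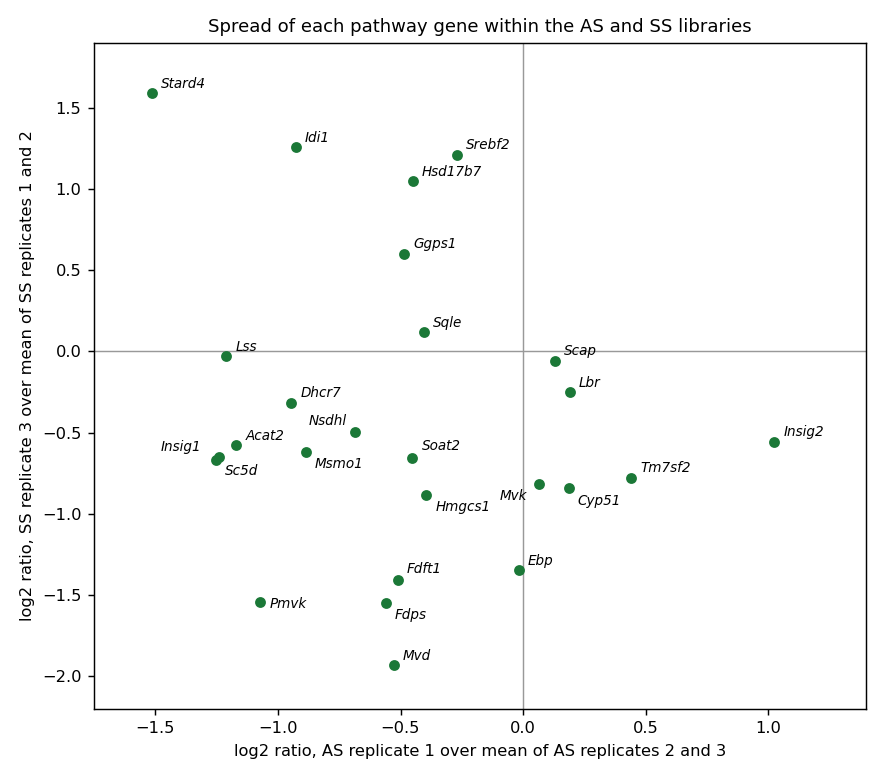
Each point is a pathway gene; the horizontal axis is the log2 ratio of AS replicate 1 to the mean of AS replicates 2 and 3, the vertical axis that of SS replicate 3 to the mean of SS replicates 1 and 2. Mvd, Fdps and Pmvk lie lowest in SS replicate 3, Stard4, Idi1, Srebf2 and Hsd17b7 highest, and Insig2 alone lies at 1.03 on the horizontal axis.

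An alternative chosen with earlier results of these data known left out AS replicate 1 and SS replicate 3, which stood apart in these same 26 genes. Its calls, p-values and library order are therefore no independent test. In it, 5 of the 26 genes were called lower in SS and 0 higher, where 2.49% of all 12716 genes tested were called lower and 2.72% higher. The 5 were Insig1 (log2 change -1.01, edgeR adjusted p = 0.0105, SE 0.156), Hsd17b7 (-1.03, edgeR adjusted p = 0.0139, SE 0.173), Idi1 (-0.96, edgeR adjusted p = 0.0141, SE 0.161), Msmo1 (-0.71, edgeR adjusted p = 0.0289, SE 0.145) and Sc5d (-0.72, edgeR adjusted p = 0.0336, SE 0.153). The median of the 26 genes was then -0.39, against -0.52 without AS replicate 1 alone and -0.24 without SS replicate 3 alone, and 21 lay below 0. SS replicates 1 and 2 were both below AS replicates 2 and 3 for 18 of the 26 genes (69.2%), against 25.4% of all genes. The spread in this fit rests in part on AS replicates 2 and 3, which differed by a chi-square of 3.98 per gene, where the other pairs of the same genotype differed by 32.8 to 131. With either of these libraries alone left out, 0 of the 26 genes were called.

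Genes next to the pathway were read from 4 lists, 45 genes in all, of which 44 were tested and 1, Soat1, was called. Among 11 genes of SREBP processing and sterol-regulated degradation, 0 were called, the median log2 change was 0.13, and the lowest p was that of Srebf1. Srebf1, whose product SREBP1 drives fatty acid synthesis, had 117.4, 117.4 and 93.1 CPM in SS replicates 1, 2 and 3, against 141, 206 and 222 CPM in AS replicates 1, 2 and 3, a log2 change of -0.79 (edgeR adjusted p = 0.2498, SE 0.264). The protease genes Mbtps1 and Mbtps2, which release SREBP in the Golgi, had log2 changes of 0.26 (SE 0.277) and 0.52 (SE 0.424). Of 9 other sterol-responsive enzymes, 0 were called, and the median was -0.31. All 9 had a log2 change below 0, against 43.7% of all genes tested, but the changes ran from -1.15 to -0.0048, which is almost none. Aacs, the acetoacetyl-CoA synthetase that feeds sterol synthesis, had 41.2, 37.1 and 34.4 CPM in SS liver, against 23.1, 111 and 116 CPM in AS liver. As with Insig1, AS replicate 1 stood with or below the SS libraries, and the log2 change of Aacs was -1.15 (edgeR adjusted p = 0.358, SE 0.477).

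Of 10 genes that use isoprenoids outside sterols, 0 were called, and the median was -0.12. The lowest p in that list was that of Fnta, a subunit of the protein prenyltransferases, with a log2 change of -0.40 (edgeR adjusted p = 0.529, SE 0.252). Of the 14 tested genes of intracellular sterol handling, 1 rose and 0 fell, and the median was 0.19. Soat1, the sterol acyltransferase of macrophages and many other cells, had 10.4, 12.3 and 20.6 CPM in SS replicates 1, 2 and 3, against 3.57, 2.26 and 4.01 CPM in AS replicates 1, 2 and 3. It rose, with a log2 change of 2.12 (edgeR adjusted p = 0.0426, SE 0.3998) and every SS library above every AS library. That call ended whichever of the 6 libraries was left out (edgeR adjusted p = 0.0524 to 0.215) and in limma-voom (adjusted p = 0.1001), while the log2 change stayed at 1.76 to 2.30 without any 1 library and was 2.05 in limma-voom. Its hepatocyte counterpart Soat2 was not called, and the difference between these changes was not tested. Abca1, the sterol exporter, Lipa, the lysosomal lipase, and Nr1h3, the sterol sensor LXR alpha, had log2 changes of 0.20 (SE 0.377), 0.18 (SE 0.2503) and -0.072 (SE 0.264).

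Marker genes of several cell types moved with genotype, and their part in these results was not tested. Of 10 hepatocyte markers, 9 were tested and 0 called, 8 of 9 had a log2 change below 0, and their median was -0.45. In AS replicate 1, 7 of 9 markers were above both other AS libraries, with a median log2 ratio to their mean of 0.59, where that of the 26 pathway genes was -0.48. With the same trimmed-mean factors, SS replicate 3 was the lowest of the 6 libraries for 4 of 9 markers (44.4%) and 17 of the 26 pathway genes, against 26.7% of all genes. Summed, the markers had 85284, 115796 and 84085 CPM in SS replicates 1, 2 and 3, where the 26 pathway genes had 3563, 4431 and 2573 CPM. In AS libraries the marker sum ran from 100002 to 151217 CPM, with AS replicate 1 the highest. The marker Ass1 had 1 to 5 reads in SS libraries and 1 to 3 in AS libraries. Reads with several alignments stand outside the gene counts, and whether this touches Ass1 was not tested. Erythroid precursor markers, 10 of 11 found by symbol, had 5 of 9 called higher and summed to 251 to 495 CPM in SS libraries, against 45.6 to 63.0 CPM in AS libraries, where Gata1 was at 0. Of the 9 tested, 8 had a log2 change above 0, while that of Klf1 was -0.86 (edgeR adjusted p = 0.491, SE 0.491). Alas2 made up most of the erythroid sum, with a mean of 253 CPM in SS libraries and 28.8 CPM in AS libraries. Of 10 dividing cell markers, 6 were called higher, with sums of 91.6 to 158 CPM in SS libraries and 9.32 to 12.7 CPM in AS libraries. Recruited macrophage markers had 6 of 9 called higher, with sums of 311 to 358 CPM in SS libraries and 125 to 129.9 CPM in AS libraries. The sums of these erythroid, dividing cell and macrophage lists were all higher in SS libraries. Every SS library was also above every AS library for 12.1% of all genes tested, among them Soat1, Ggps1 and Lbr. A link of these genes to the lists was not tested. Kupffer cell markers had 0 of 8 called and sums of 894 to 2248 CPM in SS libraries, against 713 to 961 CPM in AS libraries. Cholangiocyte, stellate cell and sinusoidal endothelial markers had 0 of 5, 1 of 7 and 0 of 5 called, with sums of 125 to 264, 347 to 571 and 175 to 307 CPM in SS libraries, against 97.6 to 115, 314 to 342 and 179 to 265 CPM in AS libraries. Spp1, which is also a recruited macrophage marker, made up most of the cholangiocyte sum, and without it the other 6 genes summed to 15.3 to 44.5 CPM in SS libraries and 19.2 to 27.8 CPM in AS libraries, which overlap. Steroidogenic cell markers were near 0, at most 2.38 CPM in SS libraries and 2.74 CPM in AS libraries summed over 4 genes, with Cyp11a1 at 0 in all.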

How the data were processed

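Liver RNA of 3 SS and 3 AS libraries was measured by RNA sequencing. The authors deposited raw read counts per gene symbol, 1 table per library. The submitters' processing notes name the aligner HISAT2, the counter HTSeq and the build mm10, but the versions, the annotation and the strand setting are not given in the sources used here. Of the 26 genes, 5 share exon bases with another gene of the tables in GENCODE (4 on the opposite strand: Ggps1, Fdft1, Lss and Cyp51, and Tm7sf2 on the same strand). The counts of these genes are less certain, since how shared reads were counted is not given. The counter lines for records outside genes (66.6% to 78.5% of records per library) were left out of library totals and of every test.

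Genes were filtered with filterByExpr (minimum count 10, minimum total 15), which kept 12622 genes, all 26 pathway genes among them, with 36 to 10089 reads per library and gene. The SS over AS contrast was fitted in edgeR 4.0.16 (R 4.3.3) by robust quasi-likelihood with TMM factors, its two-sided F-test was adjusted by Benjamini-Hochberg over all genes, and genes were called at 0.05. SEs were derived from the F statistic. CPM used the same factors. Exon lengths came from GENCODE on the same build. The procedure was tested on simulated data. Alternatives were other scaling factors, other filters, a replicate block, a non-robust fit, libraries left out or summed, DESeq2 1.42.0 and limma-voom (limma 3.58.1). The members and lists were chosen with earlier results of these data known. All 26 genes are named; from each neighbouring list, every called gene and the gene with the lowest p are named, and Mbtps1, Mbtps2, Abca1, Lipa and Nr1h3 for their values. The markers Ass1, Gata1, Klf1, Alas2 and Cyp11a1 were named after their values were seen.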

Additional observations from a re-analysis of the deposited data

How the results depend on the processing

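The number of pathway genes called was 0 with each other scaling, filter and tool, without any 1 library (0 to 0) and with AS replicates 2 and 3 summed. It was 1 with the replicate number as a block (Mvd, log2 change -1.13, edgeR adjusted p = 0.0290, where 0.737% of all genes were called lower) and 5 without AS replicate 1 and SS replicate 3. The same numbers do not pair these libraries by any label: deviations from the group means correlated at 0.056, -0.14 and 0.22 across genes for same-numbered libraries, and SS replicate 2 correlated best with AS replicate 1. Over all genes 122 were called, 217 with no filter, 460 with the replicate block, 22 to 99 without 1 library, 662 without AS replicate 1 and SS replicate 3, 31 with AS replicates 2 and 3 summed, 368 with DESeq2 and 31 with limma-voom. Of the neighbouring genes 1 was called, 0 without any 1 library (0 to 0), 0 with AS replicates 2 and 3 summed, 0 with limma-voom, and 6 without AS replicate 1 and SS replicate 3 (Soat1 higher, and Srebf1, Acss2, Aacs, Fads2 and Stard5 lower). Of 442 refits of single pathway genes, 416 kept the direction and the side of the threshold, 6 passed it and 20 changed sign. A gene that stayed uncalled with the same sign counted as kept however far its size moved. Many refits also reused all 6 libraries, so the 416 is no measure of stability. With library totals alone the log2 changes of Acat2, Idi1, Cyp51, Srebf2, Scap and Insig2 were 0.068, 0.14, 0.013, 0.21, 0.041 and 0.092. Without AS replicate 1 and SS replicate 3 those of Cyp51, Insig2, Stard4, Idi1 and Srebf2 were 0.051, 0.39, -0.49, -0.96 and -0.71, and with AS replicates 2 and 3 summed that of Acat2 was 0.023. Without any 1 library, Acat2 ranged from -0.49 to 0.060, Cyp51 from -0.45 to -0.021, Idi1 from -0.72 to 0.069, Srebf2 from -0.63 to 0.12, Insig2 from -0.39 to 0.22, Stard4 from -0.14 to 0.89 and Soat2 from -0.084 to 0.29. The cause of these changes was not tested. Each pathway gene had at least 36 reads in every library, and the intervals rest on 3 libraries per genotype.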
